A study of Homo sapiens with 24 samples.

Results

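The response of the L-428 cell line to AEZS-136 was read from 14950 probes of an Illumina bead array, of the 47323 on it. A probe was kept when its detection value exceeded 0.99 on at least 3 of the 6 arrays of this line. L-428 is an established Hodgkin lymphoma cell line, and AEZS-136 is a small molecule that inhibits both PI3K and ERK. L-428 cells exposed to 10 µM AEZS-136 for 24 hours (3 arrays) were compared with vehicle-treated L-428 cells of the same time point (3 arrays). The same 2 conditions were measured in 3 further Hodgkin lymphoma lines, KM-H2, L-540 and SUP-HD1, with 3 arrays a group and 24 arrays in all. In the study, L-540 and SUP-HD1 were the lines that died on exposure, whereas L-428 and KM-H2 were classed as resistant. Each group is 1 cell line, and neither the labels nor the methods say whether replicates came from separate cultures. A supplementary figure legend of the study describes its 24-hour array values of selected genes as 3 independent experiments. The p-values measure only the spread between these arrays of 1 line.

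PI3K signals through AKT and mTORC1, which drive ribosome production and protein synthesis and hold FOXO transcription factors out of the nucleus. ERK relays growth factor signals to immediate early genes such as JUN, IER3 and DUSP6. When translation is stressed, phosphorylation of eIF2 alpha raises the transcription factor ATF4, which activates genes for amino acid synthesis and transfer RNA charging, a program named the integrated stress response.

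Signals below are fluorescence intensities after quantile normalization over the 24 arrays, and changes are log2 differences, AEZS-136 minus control, with the standard error (SE) of the limma fit. A probe was counted as changed when its adjusted p was under 0.05 and its log2 change was at least 0.4. The third AEZS-136 array of L-428 was the dimmest of the series, with a mean raw signal of 255.6 against 297.4 to 326.8 on the other 5 arrays of the line and 297.4 to 360.9 on the other 23 arrays. After normalization it correlated with its 2 replicates like the others, at 0.991 to 0.994 within the AEZS-136 group, 0.993 to 0.995 within the control group, and 0.973 to 0.977 between groups. Among markers of Hodgkin cells, CCL17, CD40, CD80, CD83, CD86, FSCN1, IRF4 and TRAF1 were detected, whereas TNFRSF8, which encodes CD30, and CCL22 were detected on none of the 6 arrays. A probe that was not detected does not show that its RNA or protein is absent. Of 24 B lineage probes, 3 were detected on all 6 arrays (CD24, CD79B and TCF3) and 13 on none, among them those of PAX5, MS4A1 and CD22. Of 12 myeloid probes, 3 were detected on all 6 (CD68 and FCGR3A) and 4 on none, those of CD14, LYZ and MPO. CD79B (126.8 to 153.4) and FCGR3A (124.4 to 148.8) lay near the lowest signals of detected probes on these arrays, 121.0 to 126.1. Of 26 T lineage probes, 1 was detected on all 6 (GATA3) and 23 on none. GATA3 rose by 0.42 ± 0.09 in AEZS-136-treated cells.

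Of the 14950 probes, 2664 (17.8%) changed, 1326 higher and 1338 lower in AEZS-136-treated cells (8.87% and 8.95%). Over all 20027 probes tested in the 4 lines, the share called by the same contrast was 13.3%, with 6.62% higher and 6.69% lower. That background includes probes that L-428 did not detect on 3 arrays. The 3 AEZS-136 arrays did not overlap the 3 control arrays for 2620 of the 2664 changed probes (98.3%), against 37.2% of all tested probes. Without the dim array 2805 probes changed, and 2467 of the 2664 were among them with the same direction. Sizes of dim probes depend on the background correction. Of 142 named probes that changed, 27 moved further by over 1.5 times with normexp correction, their dimmer group averaging at most 215.9, among them SESN2, NFKBIZ and FRG2B at 1.90, 2.15 and −3.55, against 0.90, 1.12 and −2.45. Most changes were modest. The median was 0.57 among the rises and −0.55 among the falls, with a median SE of 0.09. A change of at least 1 log2 unit was reached by 145 rises and 56 falls, and one of at least 2 by 14 rises and 3 falls. As bulk signals, these values cannot tell fewer cells that make an RNA from less RNA per cell.

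The largest rises were in host genes of small nucleolar RNAs, long RNAs that carry snoRNAs in their introns and whose spliced transcripts are usually short-lived. EPB41L4A-AS1 rose furthest, with signals of 4429, 4336 and 3709 in AEZS-136-treated cells and 523.7, 449.5 and 426.7 in controls (3.16 ± 0.08, adjusted p = 2.2e-19). SNHG32 had 16649, 13658 and 13862 after AEZS-136 and 2628, 2914 and 2010 in controls (2.56 ± 0.11). ZFAS1 had 12734, 13340 and 13248 after AEZS-136, against 2351, 2632 and 2273 (2.44 ± 0.09). In each of these genes the lowest AEZS-136 array lay several fold above the highest control. SNHG7 (2.40 ± 0.12 by 1 probe), SNHG8 (2.35 ± 0.11) and SNHG15 (2.24 ± 0.09 and 2.09 ± 0.08) moved similarly, and 2 probes with no gene name, ILMN_1654609 and ILMN_1766446, rose by 2.97 ± 0.09 and 2.60 ± 0.11. Of 20 host gene probes, 16 rose and 1 fell, with a median change of 1.48. The exception was DANCR, a host RNA known as a suppressor of differentiation, which fell by 0.81. SNHG4 at 0.10, SNHG9 at −0.03 and a second probe of SNHG7 at 0.09 did not pass the test. This list was drawn up after the largest changes had been seen. It was high in each line, with 17 probes rising and 1 falling in KM-H2, 16 and 2 in L-540, and 14 and 2 in SUP-HD1. The rises of ZFAS1, SNHG8 and EPB41L4A-AS1 were larger in L-428 than the mean of the other lines, by 0.52, 0.72 and 0.42 log2 units. In KM-H2, L-540 and SUP-HD1, ZFAS1 rose by 2.25, 1.85 and 1.68 and SNHG8 by 2.01, 2.32 and 0.57. EPB41L4A-AS1 rose by 2.92, 3.46 and 1.84, so its rise was larger in L-540 than in L-428. The SNHG8 control signal of SUP-HD1 was low, at 137.1.

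Transcripts of many host genes, like those of ribosomal protein genes, begin with a C followed by a run of pyrimidines, a feature through which mTORC1 governs their translation. The windows below, read from RefSeq on GRCh38.p14, hold 15 bases before and 15 bases from the annotated start, on the strand of the gene. They are shown because they set genes with the largest rises beside host genes that did not rise, SNHG4 and DANCR, and capitals mark the pyrimidine run that starts at the annotated start with C. They lie at chr6:31834901-31834930 (plus strand, SNHG32), chr20:49278627-49278656 (plus, ZFAS1), chr9:136728170-136728199 (minus, SNHG7), chr5:112160511-112160540 (plus, EPB41L4A-AS1), chr5:139274086-139274115 (plus, SNHG4) and chr4:52712379-52712408 (plus, DANCR).
SNHG32: ctcgccattttagttCTTTTTgcgaagtgg
ZFAS1: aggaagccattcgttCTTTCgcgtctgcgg
SNHG7: gcttcccttctcgtcCTCTgcgtgcgccgg
EPB41L4A-AS1: tggactcatgaattctgtcgggtcccaaaa
SNHG4: ctcggctcccggctgCCCTTTCCCCTCCgg
DANCR: tcggctgcgcgccccgcccttgcccagagt
The run and the change did not go together gene by gene. The longest run printed, 13 bases, belongs to SNHG4, which did not pass the test, and EPB41L4A-AS1, with the largest rise, has none at its annotated start. A C followed by at least 4 pyrimidines began 5 of the 12 host genes with a window (41.7%), 42 of 61 cytosolic ribosomal protein genes (68.9%) and 5.14% of 27305 genes. Of 810 member probes whose gene has this start, 11.9% rose and 9.01% fell, and of 8896 whose gene lacks it, 8.97% rose and 9.25% fell. An annotated start can lie some bases from the start used in these cells.

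**Figure D1:**
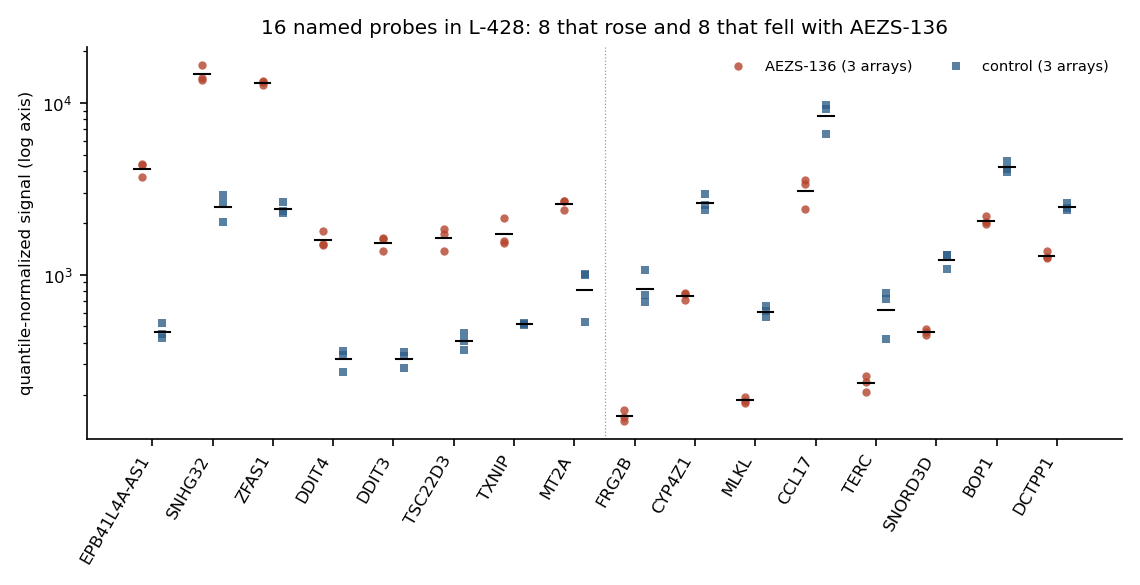
Normalized signal (log axis) of 16 named probes on the L-428 arrays, AEZS-136 (circles) left of control (squares), 1 point an array, with a line at the geometric mean of each group. The 8 probes left of the dotted line lie above their controls, EPB41L4A-AS1 furthest, and the 8 on the right lie below theirs, with no overlap between groups in any of the 16.

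Genes of the integrated stress response rose together, with 21 of 32 probes higher and 0 lower (median 0.58). DDIT4, an inhibitor of mTORC1, had 1797, 1515 and 1493 after AEZS-136 and 357.7, 272.6 and 339.9 in controls (2.31 ± 0.11, adjusted p = 8.2e-15). DDIT3, the stress-induced transcription factor CHOP, had 1367, 1602 and 1633 after AEZS-136 and 353.1, 336.0 and 284.7 in controls (2.24 ± 0.10). ATF5, an ATF4-related factor, had 6024, 6230 and 7188 after AEZS-136, against 2197, 2160 and 2291 (1.54 ± 0.11). No AEZS-136 array overlapped a control array in any of the 3, a condition under which DDIT4 and DDIT3 were picked as large rises. CEBPB, a bZIP transcription factor, rose by 1.39 ± 0.08 and ATF3, another stress-induced bZIP factor, by 0.87 ± 0.10. SESN2, which restrains mTORC1, rose by 0.90 ± 0.08. Counts in the other lines were of similar size, with 24 probes higher in KM-H2, 24 in L-540 and 19 in SUP-HD1, and 0 lower in each. The size of the response did differ in part, since 10 of the 32 probes differed from the mean of the other lines by the contrast of responses and 9 of these were less positive in L-428. ATF5 was among the 9, with 2.92 in KM-H2, 1.89 in L-540 and 1.91 in SUP-HD1, and DDIT4 was the 1 that was more positive, with 0.85, 1.40 and 0.97 in those lines.

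Genes that FOXO factors activate were higher in 9 of 25 probes and lower in 0 (median 0.31), beside 1 higher and 2 lower in KM-H2, 9 and 0 in L-540, and 14 and 0 in SUP-HD1. TSC22D3, which encodes the leucine zipper protein GILZ, had 1711, 1842 and 1368 in AEZS-136-treated cells and 458.8, 409.1 and 365.3 in controls (1.99 ± 0.10, adjusted p = 1.2e-13). A second probe of TSC22D3 rose by 1.91 ± 0.08. TXNIP, which binds thioredoxin and limits glucose uptake, had 1559, 1532 and 2135 after AEZS-136, against 510.0, 517.6 and 523.3 (1.74 ± 0.09). BTG1, an antiproliferative gene, rose by 0.84 ± 0.11. The rises of TSC22D3, by its first probe, and TXNIP were larger than the mean of the other lines by 1.07 and 1.60 log2 units. For TSC22D3 that mean is low through KM-H2 and L-540. Their changes were 0.27 and 0.83, from control signals of only 126.2 and 114. SUP-HD1 cells showed a TSC22D3 rise of 1.66 by the same probe, and L-428 was not tested against SUP-HD1 alone. TXNIP was detected on 0 of 6 arrays in KM-H2 and in L-540, and on all 6 in SUP-HD1, where the change was 0.53, so the contrast for TXNIP sets L-428 mostly against lines without a detected signal.

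FOXO factors bind the core GTAAACA, and heterodimers of ATF4 with C/EBP proteins bind sites that hold TGATGCA. Both were searched on both strands in the 250 bases before each annotated start. The matches are shown because they are the letters by which these families are recognised, in members of the 2 lists above, with the match in capitals. TXNIP (chr1:145996685-145996714, minus strand, match at −124 from the start), TSC22D3 (chrX:107717191-107717220, minus, −147) and BTG1 (chr12:92146037-92146066, minus, −209) hold the FOXO core, and SLC1A5 (chr19:46784893-46784922, minus, −97) and AARS1 (chr16:70289674-70289703, minus, −186) hold the other.
TXNIP: tcgggctcctgGTAAACAaggaccgggcag
TSC22D3: aagtgctgaacTGTTTACagtcccagccta
BTG1: ccgggtttattTGTTTACaagcggattacg
SLC1A5: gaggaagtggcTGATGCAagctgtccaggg
AARS1: tttctcgcagtTGCATCAgccaagttagag
The FOXO core was found for 4 of 19 genes of the FOXO list (21.1%) and for 3.66% of 27305 genes, and TGATGCA for 3 of 21 genes of the stress response list (14.3%) and for 2.68% of all. Over all members the cores did not single out rises. Of 300 probes whose gene has the FOXO core, 10% rose and 10.7% fell, and of 9406 without it, 9.19% rose and 9.19% fell. Of 164 probes with TGATGCA, 9.15% rose and 12.8% fell, against 9.21% and 9.17% of 9542 without it. The 3 genes printed for the FOXO core all rose, and the changes of SLC1A5 and AARS1 are not reported here. HBP1 (match at −173) and PHGDH (−243) also hold the core of their list and are not printed. A match is a description of the letters, not of binding.

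Genes of lysosomes and autophagy were higher in 12 of 35 probes and lower in 0 (median 0.21). MAP1LC3B, which coats autophagosomes, had 839.7, 688.4 and 518.8 after AEZS-136 and 294.3, 273.8 and 311.7 in controls (1.19 ± 0.12, adjusted p = 1.4e-08). LAMP2, a lysosomal membrane protein, rose by 0.93 ± 0.10, WIPI1, which acts in autophagosome formation, by 0.83 ± 0.08, and ULK1, the kinase that starts autophagy, by 0.82 ± 0.10.

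Genes of MHC class II, which present antigen to helper T cells, differed in response between L-428 and the mean of the other lines. Of 19 probes for class II molecules and their partners, 6 rose and 0 fell (median 0.24), whereas 0 rose and 9 fell in KM-H2, 0 rose and 6 fell in L-540, and 2 rose and 1 fell in SUP-HD1. By the contrast of responses 12 of the 19 differed, all 12 more positive in L-428. That mean is low through KM-H2 and L-540, with list medians of −0.37 and −0.33, against 0.04 in SUP-HD1. L-428 was not tested against SUP-HD1 alone. CD74, the invariant chain, had 718.8, 726.2 and 766.0 in AEZS-136-treated cells and 340.9, 303.9 and 364.5 in controls (1.13 ± 0.10). RFX5, an activator of class II promoters, rose by 0.95 ± 0.10, HLA-DOA by 0.84 ± 0.11 and HLA-DMA, both subunits of peptide-loading regulators, by 0.63 ± 0.11. In SUP-HD1, CD74 changed by 0.49, RFX5 by 0.71, HLA-DOA by 0.07 and HLA-DMA by 0.01. MHC class I was mixed, with 4 higher and 4 lower of 25. HLA-E, a ligand of natural killer cell receptors, rose by 0.94 ± 0.10 and PSMB8, an immunoproteasome subunit, fell by 0.79. HLA genes are similar in sequence and vary between lines, so their probes may read alleles unequally. Of 35 interferon-stimulated probes, 6 rose and 2 fell (22.9% called, beside 17.8% of all members). XAF1, which promotes apoptosis, rose by 1.01 ± 0.10, and IRF7, a regulator of interferon genes, by 0.99 ± 0.10.

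NF-kB target genes had 5 probes higher and 0 lower of 26. That is 19.2% called, beside 17.8% of all members, of which 8.87% were higher and 8.95% lower. NFKBIA, the inhibitor that NF-kB induces against itself, had 8095, 9225 and 10081 after AEZS-136 and 4018, 3384 and 3530 in controls (1.32 ± 0.12, adjusted p = 3.8e-09). NFKBIZ, a nuclear relative, rose by 1.12 ± 0.09. NFKBIA changed by 1.43 in KM-H2, 0.02 in L-540 and 0.12 in SUP-HD1. Chemokines, cytokines and their receptors were mixed, with 2 higher and 4 lower of 19. CCL17, a T cell attractant that Hodgkin cells secrete, had 3530, 3347 and 2405 after AEZS-136 and 9225, 9660 and 6582 in controls (−1.46 ± 0.14). With CCL17 among them, the summed signal of the Hodgkin marker probes was 24899 to 28613 in AEZS-136-treated cells and 33208 to 35448 in controls. The costimulatory ligand gene CD86 fell by 0.77, and CD83, an activation marker, rose by 0.59 ± 0.08.

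Genes downstream of ERK were split, with 5 higher and 5 lower of 25 probes. IER3, an immediate early gene linked to cell survival, had 586.9, 533.4 and 499.6 in AEZS-136-treated cells and 384.5, 346.1 and 357.4 in controls (0.57 ± 0.08, adjusted p = 2.8e-06). JUNB, an AP-1 subunit, had 511.9, 500.8 and 483.8 after AEZS-136 and 263.6, 221.7 and 278.2 in controls (0.98 ± 0.09). DUSP6, a phosphatase that acts on ERK, had 321.4, 303.5 and 322.0 after AEZS-136 against 344.4, 339.1 and 401.2, and its −0.19 ± 0.07 lay under the minimum change although its adjusted p was 0.04. IER3 and JUNB did not overlap between groups, and neither did DUSP6. The IER3 response exceeded the mean of the other lines by 0.59 log2 units, with 0.51 in KM-H2, −0.84 in L-540 and 0.28 in SUP-HD1. None of the 18 arrays of those lines detected DUSP6. JUN rose by 0.76 ± 0.14, and MYC, which drives growth, fell by 0.68. Of the kinases themselves, MAPK3, which encodes ERK1, fell by 0.48 by 1 probe and had −0.34 ± 0.08 by the second, under the minimum, and MAP2K1, which encodes MEK1, fell by 0.43.

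**Figure D2:**
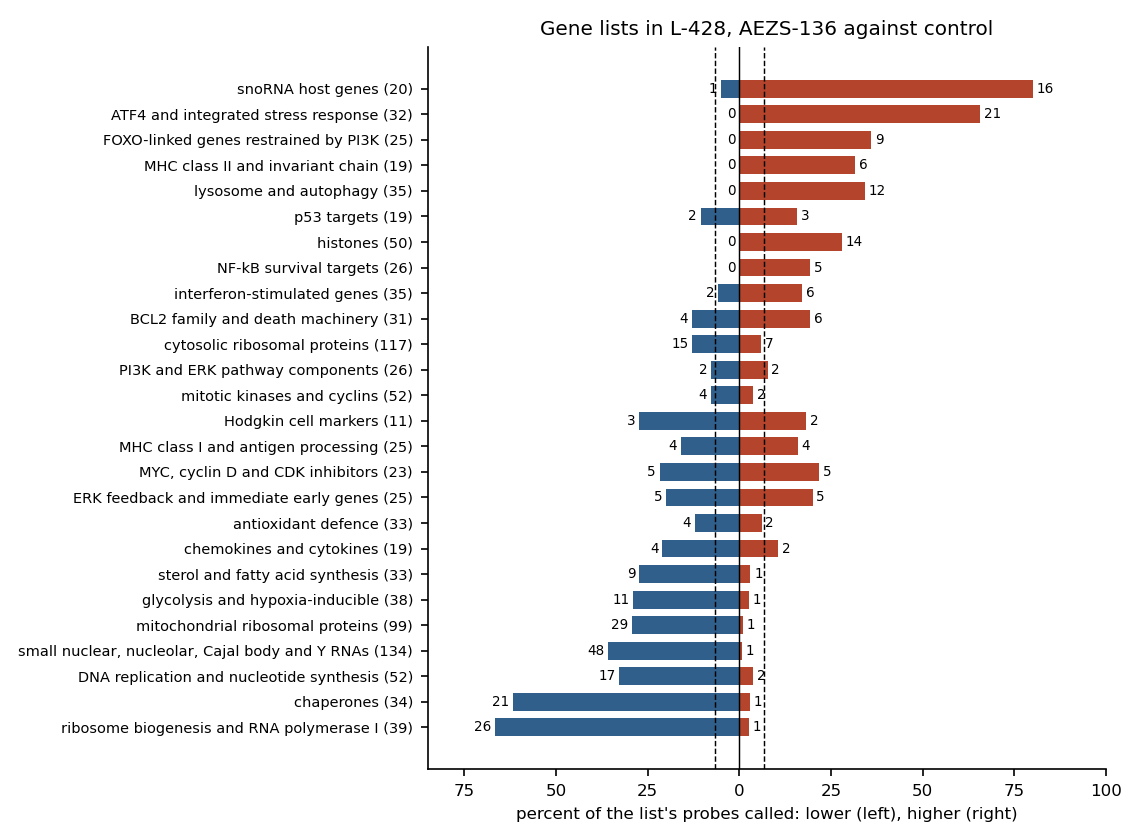
Percent of the member probes of each gene list (number of probes in brackets) that were higher (to the right) or lower (to the left) in AEZS-136-treated L-428 cells, with the counts at the bars and dashed lines at 6.62% and 6.69%, the shares of all tested probes. Among all member probes the shares were 8.87% higher and 8.95% lower. Of the snoRNA host gene probes 16 rose and 1 fell, and of the ribosome biogenesis probes 1 rose and 26 fell.

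Transcripts of ribosome assembly factors were mostly lower. Of 39 probes for ribosome biogenesis and RNA polymerase I, 26 fell and 1 rose (median −0.58). BOP1, which processes the large subunit's ribosomal RNA, had 2014, 1963 and 2197 in AEZS-136-treated cells and 4140, 3950 and 4614 in controls (−1.04 ± 0.07, adjusted p = 6.7e-11). RRS1, an assembly factor of the large subunit, had 425.4, 399.3 and 366.9 after AEZS-136, against 868.0, 879.8 and 850.0 (−1.13 ± 0.09). LYAR, a nucleolar protein, fell by 1.04 and 0.92 by its probes. The falls of BOP1 and RRS1 were deeper than the mean of the other lines by 0.57 and 0.56. In KM-H2, L-540 and SUP-HD1, BOP1 changed by −0.003, −0.86 and −0.55 and RRS1 by −0.34, −0.79 and −0.59, so that KM-H2 moved least. The list had 28 lower probes in L-540 and 28 in SUP-HD1, and 1 in KM-H2. Mitochondrial ribosomal proteins had 29 lower and 1 higher of 99, whereas cytosolic ribosomal proteins had 15 lower and 7 higher of 117, with a median of 0.01. For the cytosolic list that is 18.8% called, beside 17.8% of all members. The extremes of the cytosolic list, RPL29 at −1.54 and RPL37 at 1.75, are uncertain because ribosomal protein genes have many near-identical pseudogenes.

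Small nuclear, nucleolar, Cajal body and Y RNAs, many of which act in splicing or RNA modification, had 48 lower and 1 higher of 134 probes (median −0.28). TERC, the telomerase RNA, had 206.8, 257.9 and 238.1 after AEZS-136 and 782.0, 722.1 and 423.6 in controls (−1.41 ± 0.14). SNORD3D is a copy of the U3 RNA, which acts in cleavage of the ribosomal RNA precursor. It had 483.9, 444.1 and 462.5 after AEZS-136 and 1292, 1306 and 1083 in controls (−1.40 ± 0.12), and the U3 copies are too alike to separate. RNY4, a Y RNA, fell by 1.38 and RNU4ATAC, of the minor spliceosome, by 1.21. L-540 had 103 lower probes, SUP-HD1 13 and KM-H2 8. In L-428, 28 probes differed from the mean of the other lines, 24 of them more positive.

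Chaperone genes fell in 21 of 34 probes and rose in 1 (median −0.50). HSPD1, the mitochondrial chaperonin, had 223.1, 228.7 and 216.6 in AEZS-136-treated cells and 408.5, 417.5 and 417.4 in controls (−0.90 ± 0.08). HSPB1, a small heat shock protein, fell by 0.87, and TCP1 and CCT7, subunits of the cytosolic chaperonin, by 0.81 and 0.79. ZFAND2A, a stress-induced proteasome-associated gene outside this list, rose by 2.12 ± 0.11. Glycolytic genes had 11 lower and 1 higher of 38 probes, with PGK1, GPI and LDHA falling by 0.93, 0.90 and 0.79. Sterol and fatty acid synthesis had 9 lower and 1 higher of 33. The fatty acid enzyme ACLY fell by 0.66 and INSIG1, which restrains sterol synthesis, rose by 0.59 ± 0.13.

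Genes of DNA replication and nucleotide synthesis fell in 17 of 52 probes and rose in 2 (median −0.30). DCTPP1, which removes surplus dCTP, had 1370, 1266 and 1241 after AEZS-136 and 2362, 2449 and 2607 in controls (−0.94 ± 0.09), and fell by 0.76 by a second probe. DUT, which removes dUTP, fell by 0.77 and 0.75. RRM2, the small subunit of ribonucleotide reductase, went the other way, with 1093, 686.9 and 665.5 in AEZS-136-treated cells and 488.3, 559.3 and 608.3 in controls (0.53 ± 0.13, adjusted p = 2.6e-03). Its first AEZS-136 array stands apart, and without that array the change was 0.30, under the minimum. The list had 16 lower probes in KM-H2, 43 in L-540 and 34 in SUP-HD1.

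Mitotic genes barely moved in L-428, as in KM-H2, whereas most fell in L-540 and SUP-HD1. Of 52 probes for mitotic kinases, cyclins and their partners, 2 rose and 4 fell in L-428 (median 0.01, and −0.02 with median scaling), whereas 0 rose and 5 fell in KM-H2, 0 rose and 47 fell in L-540, and 0 rose and 45 fell in SUP-HD1. By the contrast of responses 35 of the 52 differed from the mean of the other lines, all 35 more positive in L-428. That mean is low through L-540 and SUP-HD1, and L-428 was not tested against KM-H2 alone. Over all tested probes, 6.31% differed by this contrast. AURKB, the kinase of the chromosomal passenger complex, had 2431, 2148 and 1960 in AEZS-136-treated cells and 1508, 1657 and 1387 in controls (0.52 ± 0.10, adjusted p = 2.1e-04). In the other lines AURKB changed by 0.02 in KM-H2, −0.78 in L-540 and −0.86 in SUP-HD1, and the response of L-428 was 1.06 log2 units above their mean. With scaling by the array median in place of quantiles, the change of AURKB in L-428 was 0.39, just under the minimum. CENPA, the histone of the centromere, had 457.5, 435.8 and 414.6 after AEZS-136 and 285.5, 282.3 and 234.3 in controls (0.71 ± 0.09). The spindle checkpoint kinase BUB1 fell by 0.53 and the mitotic kinase PBK by 0.47. CCNA2, which encodes cyclin A2, had 882.1, 616.5 and 654.2 after AEZS-136 and 965.7, 799.4 and 1093 in controls, so that the groups overlapped. Its change of −0.42 ± 0.12 passed the test but missed the test or the minimum in 7 of 15 other settings, median scaling and the omission of single arrays among them.

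**Figure D3:**
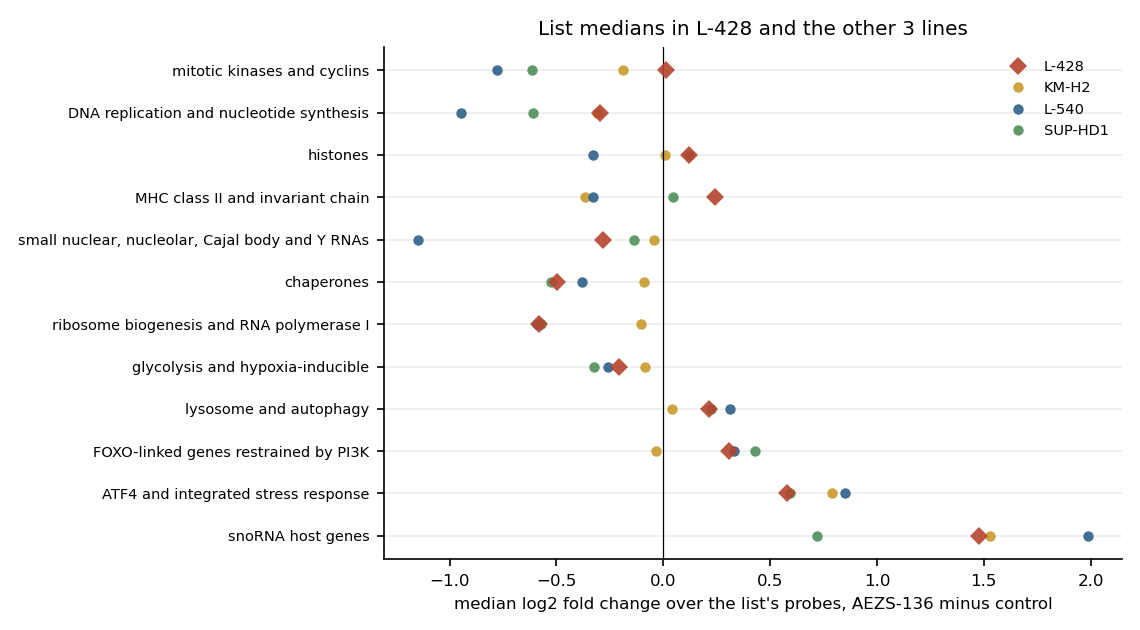
Median log2 change (AEZS-136 minus control) over the probes of 12 gene lists in L-428 (diamonds), KM-H2, L-540 and SUP-HD1 (circles). The median of the mitotic list was 0.01 in L-428, −0.19 in KM-H2, −0.78 in L-540 and −0.61 in SUP-HD1.

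Histone genes had 14 higher and 0 lower of 50 probes. H2BC12, a core histone with a polyadenylated transcript, rose by 0.90 ± 0.11 and H3-3B, a replication-independent histone, by 0.96 ± 0.12. H2AB1 and H2AB2 rose by 0.95 ± 0.13 and 1.05 ± 0.13, but these genes are near-identical copies whose probes may read both. In the other lines, 6 rose and 3 fell in KM-H2, 8 rose and 22 fell in L-540, and 16 rose and 1 fell in SUP-HD1. Of the 50 probes 14 differed from the mean of the other lines, 11 of them more positive in L-428, beside 7.99% of all members that differed. That mean is low through L-540, with a list median of −0.33, against 0.12 in both SUP-HD1 and L-428. L-428 was not tested against SUP-HD1 alone.

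Among cell death genes, 6 of 31 probes rose and 4 fell. MLKL, the effector that ruptures the membrane in necroptosis, fell furthest. It had 183.2, 193.3 and 179.7 in AEZS-136-treated cells and 563.0, 611.6 and 653.5 in controls (−1.71 ± 0.09, adjusted p = 2.2e-13), with a change of −0.60 in KM-H2, −0.73 in L-540 and −1.10 in SUP-HD1. The fall was deeper in L-428 than their mean by 0.90 log2 units. DIABLO, a mitochondrial antagonist of caspase inhibitors, rose by 0.76 ± 0.10 and 0.68 ± 0.07, and HTRA2, a mitochondrial protease of similar role, by 0.66 ± 0.10. TNFSF10, the death ligand TRAIL, rose by 0.83 ± 0.10. Antioxidant genes had 2 higher and 4 lower of 33 (18.2% called, beside 17.8% of all members). GPX4, which reduces lipid peroxides, rose by 0.83 ± 0.11 and 0.65 ± 0.10. SOD2, the mitochondrial superoxide dismutase, fell by 0.61 and 0.55.

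The probes with the 5 deepest falls belong to no list, and 2 of them have no gene name. FRG2B, a gene of unknown function, had 140.9, 147.9 and 163.6 in AEZS-136-treated cells and 692.5, 758.6 and 1070 in controls (−2.45 ± 0.10, adjusted p = 4.9e-16). Its paralog FRG2 had 138.0, 134.2 and 163.1 after AEZS-136 and 636.0, 651.4 and 867.2 in controls (−2.30 ± 0.10), and the probes may read both copies. CYP4Z1, a fatty acid hydroxylase of the cytochrome P450 family with a near-identical pseudogene, had 768.5, 709.6 and 778.0 after AEZS-136 and 2556, 2379 and 2930 in controls (−1.80 ± 0.07) and fell by 1.71 and 1.57 by its other probes. These signals fell close to background for FRG2 and FRG2B, whereas CYP4Z1 kept a clear signal. SLC2A5, a fructose transporter, fell by 1.5, AMPH, an endocytic adaptor, by 1.5 and NEK6, a mitotic kinase, by 1.48. FRG2 and FRG2B were detected on no array of KM-H2 or L-540 and on all 6 of SUP-HD1, where they changed by −0.88 and −0.85. AMPH was detected on 0 of 6 arrays in KM-H2 and L-540 and on 4 in SUP-HD1. For FRG2B and FRG2 the control signal of SUP-HD1 was 1624 and 1149, so that in this line a smaller change was measured at a clear signal, whereas KM-H2 and L-540 had no signal from which to fall.

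Metallothioneins, which bind zinc, rose in 2 of 6 probes. MT2A had 2694, 2686 and 2364 in AEZS-136-treated cells and 1014, 993.4 and 532.2 in controls (1.67 ± 0.20, adjusted p = 6.6e-07), and its response was 2.18 log2 units above the mean of the other lines, the largest positive difference of all members. It changed by −0.18 in KM-H2, −1.11 in L-540 and −0.26 in SUP-HD1 and was detected on all 18 of their arrays. MT1X rose by 0.66 ± 0.18. The third control array was the lowest for both, and these genes are so alike that their probes may share RNA. RNA5S9, a 5S ribosomal RNA copy, rose by 0.90 ± 0.14, and RHBDD2, a rhomboid-like membrane protein, by 2.26 ± 0.08 and 2.17 ± 0.09.

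Set against the mean response of the other lines, 1195 of the 14950 probes (7.99%) differed, 644 more positive and 551 more negative in L-428. Of all tested probes 6.31% differed, 3.38% more positive and 2.93% more negative. Of the 2664 changed probes, 687 differed by this contrast. Among the 687, the L-428 change had the same sign and was larger in 451, had the opposite sign in 212 and was smaller in 24. For 54 of the 687 no array of the other lines, of 18, detected the probe, which holds for 34 of the 212 of opposite sign.

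**Figure D4:**
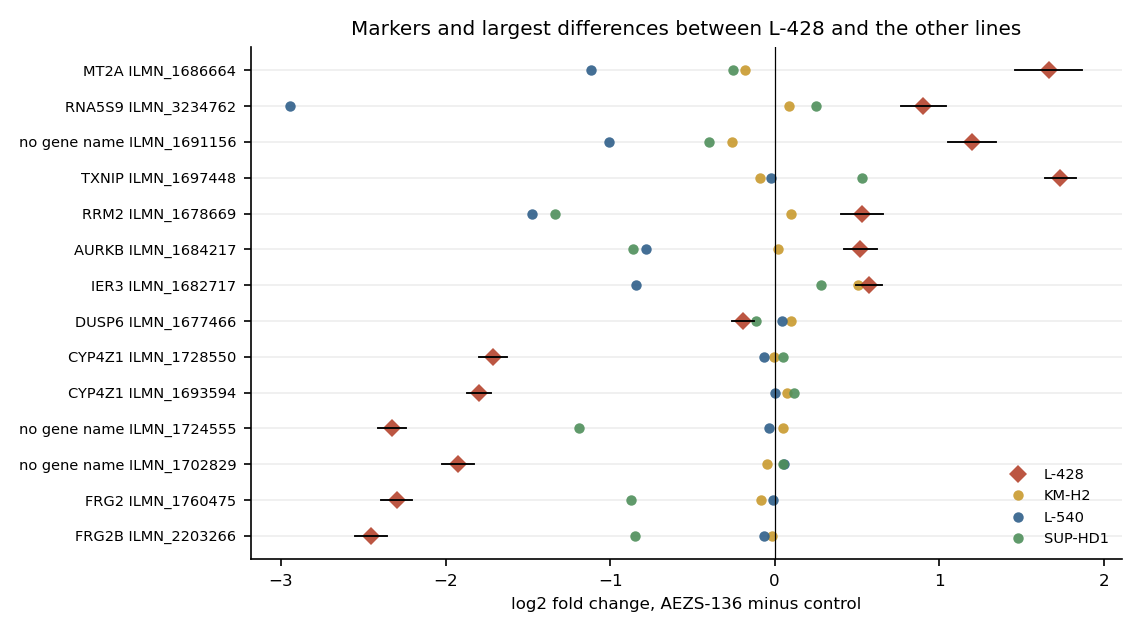
Log2 change (AEZS-136 minus control) in L-428 (diamonds, bars for 1 SE) and in KM-H2, L-540 and SUP-HD1 (circles) for the 5 marker probes and the 10 probes with the largest difference, TXNIP being in both. MT2A, TXNIP and AURKB lie to the right of the circles in L-428, at 1.67, 1.74 and 0.52, and FRG2B and the CYP4Z1 probes to the left.

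The share of changed probes grew with signal level. The median control signal was 304 for probes that rose, 546 for those that fell and 205 for those not called. With the probes in 4 equal groups by control signal, 5.03% rose and 0.214% fell in the lowest group (99.2 to 148), against 9.79% and 18.5% in the highest (527 to 24850). From the lowest group to the highest, the share called was 5.24%, 12.6%, 25.2% and 28.3%. The ranking uses the same control arrays as the change, and a probe that is low in controls could enter through the AEZS-136 arrays, so these shares are a description. Ranked by the mean of all 6 arrays, 3.32% of the lowest group and 28.0% of the highest were called. By that ranking 2.25% rose and 1.07% fell in the lowest group, and 13% rose and 15% fell in the highest. Ranked by their level in the other lines, which these 6 arrays did not set, the shares called were 7.54% and 26.5%, with 3.99% higher and 3.56% lower in the lowest group and 11.7% higher and 14.8% lower in the highest. The gap between rises and falls was smaller by both of these rankings than by control level. All these shares rest on intensities that were not background-subtracted, and sizes of dim probes depend on that correction. With normexp correction 4759 probes changed, against 2664. The part of uncorrected background in the growth with level was not tested.

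**Figure D5:**
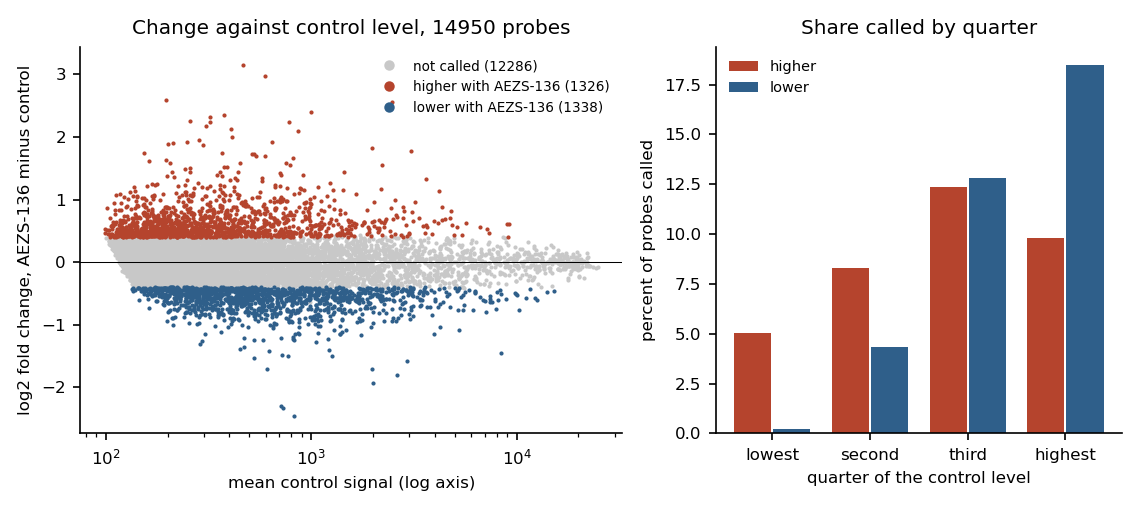
Left, log2 change in L-428 (AEZS-136 minus control) against the mean control signal (log axis), 1 point a member probe, with 1326 rises and 1338 falls coloured. Right, the percent of probes called higher and lower in 4 equal groups by control signal, where the percent lower climbs to 18.5% in the highest group, against 0.214% in the lowest. Intensities were not background-subtracted.

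Detection calls gave few clear switches. Of the 14950 probes, 12338 were detected on all 6 arrays, among them 1211 of the rises and 1271 of the falls. Another 277 were detected on all 3 AEZS-136 arrays and on no control array, and 125 on all 3 control arrays and on no AEZS-136 array. The AEZS-136 arrays detected more probes, 31.4% to 32.3% of the array against 29.6% to 31.7% in controls, and the part of this in the 2 counts was not tested. Leaving out 1 array moved the counts to between 320 and 444 on and between 164 and 258 off, and changed detection limits left 29 and 6. Fewer arrays make the rule easier to meet and the changed limits make it harder, so the direction of both moves was fixed in advance. Of the 277, 49 (17.7%) passed the test as rises, and of the 125, 27 (21.6%) as falls, beside 17.8% of all members. These probes are members through the arrays of 1 group, so the counts are a description. As a lower bound, the brighter group's mean was set against the lowest signal among detected probes or the dim probe's own signal, whichever was higher on each array. By that bound the median was at least 1.09-fold among the 277 and at least 1.12-fold among the 125, and 9 and 5 of them reached 1.5-fold.

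The clearest switch on was TMEM91, a membrane protein of little-known function, with 247.4, 253.0 and 249.9 in AEZS-136-treated cells, against 117.8, 125.0 and 109.9 in controls, which were not above background (at least 2.03-fold higher). COX11, a copper chaperone of cytochrome oxidase, had 215.4, 222.4 and 281.0 after AEZS-136 and 120.8, 109.4 and 108.3, not above background, in controls (at least 1.93-fold higher). A second SNHG32 probe was also switched on, at least 1.72-fold higher. Among those switched off, ASB9, a ubiquitin ligase adaptor, had 111.6, 118.0 and 114.2 after AEZS-136, not above background, and 211.8, 226.9 and 199.9 in controls (at least 1.75-fold lower). SPP1, which encodes osteopontin, had 116.0, 106.5 and 119.1 after AEZS-136, not above background, and 215.3, 217.1 and 200.7 in controls (at least 1.73-fold lower). TRIM15, a ubiquitin ligase, PTP4A3, a phosphatase, and PECAM1, an adhesion molecule, were switched off as well, at least 1.66-fold, 1.62-fold and 1.45-fold lower.

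Probes of 1 gene mostly moved together. Of 2191 genes with more than 1 member probe, 266 had more than 1 changed probe, and 5 of these had probes that changed in opposite directions, namely DEF8, HNRNPA2B1, RPL34, SEC22C and TMEM97. HNRNPA2B1, an RNA-binding splicing regulator, had 1735, 1980 and 2056 after AEZS-136 and 552.7, 642.3 and 589.1 in controls by 1 probe (1.69 ± 0.11), and 1788, 1788 and 1769 after AEZS-136 and 4011, 4048 and 3840 in controls by another (−1.15 ± 0.09). The groups were apart for these 2 probes, in opposite directions, and another changed probe of the gene rose by 0.43 ± 0.13. These 5 genes were singled out after their values had been seen. HNRNPAB, a related RNA-binding protein, had 3 probes that ran the same way. It fell by 0.48 and 0.60 by a pair of them, and had −0.25 ± 0.08 by the third, which was under the minimum.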

How the data were processed

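Total RNA of each sample was labelled as biotin cRNA and hybridised to Illumina bead arrays, 1 array a sample. The authors deposited a table of linear intensity values per probe, not background-subtracted, read with BeadStudio per the submitters' processing notes (version not given in the sources used here), and beside each a detection fraction from 0 to 1, read here as 1 minus the detection p-value. The deposited log2 values of the same arrays (robust spline normalization per the authors' methods; array medians 6.79 to 6.80) served as an alternative. No depth applies to arrays, and 3 arrays a group limit the precision: an exact test of 3 against 3 cannot go below 0.1.

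Intensities of 24 arrays were quantile-normalized and log2-transformed. Probes detected (above 0.99) on at least 3 of 24 arrays, 20027 in all, were fitted with limma 3.58.1 in R 4.3.3 (lmFit, eBayes, 8 group means, 16 residual and 8.94 prior degrees of freedom), and p-values were adjusted by Benjamini-Hochberg over all of them. A change needed an adjusted p under 0.05 and at least 0.4 log2 units, the thresholds of the methods. The response of L-428 was compared with the mean response of the other 3 lines by a contrast in the same fit. Code was tested on simulated data. Columns of no mapped sample numbered 0.

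The platform annotation gave 1 symbol for 30113 probes, several for 8 and none for 17202, and 11847 of the 14950 members have 1 symbol (9171 genes). RefSeq windows (GRCh38.p14) were matched by symbol for 7461 of these genes. The members and lists were chosen with earlier results of these data known. The lists of host genes, small RNAs, ribosomal proteins and histones, and the HNRNPA2B1 probes, were added after values were seen. Named probes were the 15 largest rises and 15 largest falls without overlap, 5 markers, genes the study assayed by PCR, up to 4 of each list, 10 with the largest difference from other lines, and up to 6 switched on or off with the brightest signal. Alternatives were median scaling, the deposited log2 values, normexp background correction, no detection filter, a replicate block, no minimum change, a fit on the 6 arrays alone, adjustment over the members alone, the methods' t-test, other detection limits and each array left out. Figures were drawn with matplotlib 3.10.9.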

Additional observations from a re-analysis of the deposited data

Results flagged for a closer look

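The results below stand out because the AEZS-136 response of L-428 differed from the mean response of KM-H2, L-540 and SUP-HD1 by the contrast tested in the same limma fit. Each value is the difference in log2 units, L-428 minus the mean of the other lines, and the cause was not tested. L-428 was not tested against each line alone, and a difference can come from only some of those lines.

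Among probes detected on all 18 arrays of the other lines, the difference was 2.18 for MT2A, 1.77 for RNA5S9, 1.75 for the unnamed probe ILMN_1691156, 1.43 for RRM2, 1.24 for DDIT4 and 1.06 for AURKB. It was 0.938 and 0.85 for the probes of RHBDD2, 0.895 for CCNA2, 0.716 for SNHG8, 0.591 for IER3, 0.569 for the rising probe of HNRNPA2B1, 0.515 for ZFAS1, 0.49 for 1 probe of HNRNPAB, 0.422 for ZFAND2A and 0.419 for EPB41L4A-AS1. For HNRNPAB and CCNA2, which fell in L-428, a positive difference means a smaller fall than the mean of the other lines, although HNRNPAB fell by 0.48 in L-428 and changed by −0.40 in KM-H2. In the opposite direction it was −0.903 for MLKL, −0.668 for SNORD3D and −0.452 for 1 probe of MAPK3. SNORD3D fell further in L-540 (−2.64) than in L-428 (−1.40). EPB41L4A-AS1 and ZFAND2A rose further in L-540 (3.46 and 2.51) than in L-428 (3.16 and 2.12). RNA5S9 changed by 0.09 in KM-H2, −2.94 in L-540 and 0.25 in SUP-HD1.

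Other probes were measured in only some of those arrays. The difference was 1.07 for TSC22D3, detected on 5, 3 and 6 of the 6 arrays of KM-H2, L-540 and SUP-HD1 in that order, and 1.6 for TXNIP, detected on 0, 0 and 6. It was −2.15 for FRG2B, −1.97 for FRG2 and −1.94 for the unnamed probe ILMN_1724555, each detected on 0, 0 and 6. It was −1.57 for AMPH (0, 0 and 4), −1.23 for NEK6 (5, 0 and 2), −1.07 for CCL17 (3, 0 and 6), −0.69 for SLC2A5 (6, 0 and 5) and −0.668 for TERC (1, 6 and 5). SLC2A5 changed by −1.51 in KM-H2, much as in L-428 (−1.50), and TERC fell further in L-540 (−2.08) than in L-428 (−1.41). TSC22D3 rose by 1.66 in SUP-HD1, beside 1.99 in L-428. The unnamed probe ILMN_1702829, at −1.95, and 2 probes of CYP4Z1, at −1.86 and −1.71, were detected on none of the 18 arrays, and the remaining probe of CYP4Z1, at −1.59, on 1.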

How the results depend on the processing

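No named probe that passed the test changed direction under any alternative run, and FCGR3A, which did not pass, lay between −0.004 and 0.163. Rises were 51.9% of the changed probes with the methods' t-test and 50.9% with normexp correction, against fewer rises than falls, 1326 and 1338. List medians near 0 did, namely that of the mitotic list (0.01) and of the cytosolic ribosomal proteins (0.01), at −0.02 and −0.01 with median scaling, and that of the Hodgkin markers (0.01), at −0.001 with the deposited log2 values. The number of changed probes, 2664, became 4759 with normexp background correction, 5221 with no minimum change and 1438 with the methods' t-test (after Benjamini-Hochberg, with the minimum of 0.4), and lay between 2508 and 2672 under the other settings. It ranged from 2617 to 2805 with each L-428 array left out. Median scaling gave 2573, of which 52.3% were higher. Replicate numbers did not pair the samples, since same-numbered deviations correlated at −0.14, 0.10 and 0.15, and the fit with the replicate number as a block called 2672 probes, 2662 of them shared. The number that differed from the other lines, 1195, became 2045 with no minimum change and 1100 to 1391 with each array left out.

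Switches rested on the detection limit. A stricter limit for on together with a looser one for off left 29 probes switched on and 6 switched off, against 277 and 125. With each array left out the counts were 320 to 444 on and 164 to 258 off, and by the rule they could not fall below 277 and 125. Without AEZS-136 replicate 3, the dim array, 444 were on, without AEZS-136 replicate 1 202 were off, and without control replicate 2 258 were off. With probes in 4 equal groups by level, 3.32% of the lowest group were called when ranked by the mean of all 6 arrays, and 5.24% when ranked by control level. Over members detected on all 6 arrays, a setting chosen after seeing the data, 7.39% were called in the lowest group and 27.7% in the highest.

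Of 154 named probes, 33 lost their call with the methods' t-test, 3 with median scaling, 1 with the 6 arrays alone and 1 to 4 with an array left out. With normexp correction the FOXO list had 15 probes higher against 9, the small RNA list 80 lower against 48 and the mitotic list 8 lower against 4, and median scaling left 1 mitotic probe higher against 2.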
